A study of Drosophila melanogaster with 14 samples.

Results

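The genes described here are the proteasome subunit genes of *Drosophila melanogaster*, measured in the ventral lateral neurons (LNvs), the clock neurons that make the neuropeptide PDF. They were found by name: every protein-coding gene whose symbol begins with Prosalpha, Prosbeta, Rpn or Rpt followed by a digit was taken, which gave 48 of the 13792 genes with a matched transcript. By symbol they fell into 7 subunits of the alpha rings, 7 of the beta rings, 6 ATPases of the cap, 12 other subunits of the cap and 16 paralogs, whose number is followed by T or R. The first 4 classes make up 32 standard subunits.

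The proteasome is the machine that degrades ubiquitin-tagged proteins. Its core particle is a barrel with outer alpha rings, which gate the entry, and inner beta rings, in which *Prosbeta1*, *Prosbeta2* and *Prosbeta5* carry the caspase-like, trypsin-like and chymotrypsin-like cutting sites. The regulatory cap recognises tagged proteins through its Rpn subunits and unfolds them with a ring of Rpt ATPases. Many core and cap genes of the fly have a paralog expressed in the testis, where some are needed for sperm development, and in neurons as in other cells the proteasome clears misfolded proteins.

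The series held 14 RNA-seq libraries from LNvs of female flies, all labelled w1118 in background and HC25 in condition, which were sorted by flow cytometry for a green fluorescent protein driven by *Pdf*. The *Atx2* RNAi flies (labelled Atx2 KD) expressed a hairpin against *Atx2*, an RNA-binding translation regulator, in the PDF neurons alone and were sampled in duplicate at ZT0, when the lights come on, and at ZT12, when they go off. Flies with the tyf(e) allele, a mutation that all of their cells carry of *tyf*, whose product works with *Atx2* on the translation of a clock gene, were sampled in duplicate at ZT4 and ZT16. Wild-type flies (WT) gave 1 library at each of ZT2, ZT4, ZT12, ZT14, ZT16 and a time labelled ZT24, which the methods of the study treat as ZT0. As in those methods, *Atx2* RNAi at ZT0 was compared with WT ZT24 and ZT2, *Atx2* RNAi at ZT12 with WT ZT12 and ZT14, *tyf* at ZT4 with WT ZT2 and ZT4, and *tyf* at ZT16 with WT ZT14 and ZT16. The *Atx2* RNAi and *tyf* comparisons thus share WT libraries. The labels give no age, no batch and no statement that replicates were separate cultures of flies, so the p-values measure only the spread between these libraries, and a batch that follows genotype cannot be told apart from genotype.

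The libraries held 5201334 to 23448739 estimated reads on matched genes. *Atx2* lay at 209 to 464 normalised counts in the 4 RNAi libraries and at 1195 to 2317 in WT, and *tyf* at 352 to 684 in the mutant and at 3204 to 9701 in WT. In *Atx2* RNAi, *tyf* had 1959 and 2375 at ZT0, below every WT library, and 6276 and 8333 at ZT12, within the WT range. *Pdf*, the defining gene of these neurons, stood at 193000 to 348000 TPM, a unit that gives a gene's share of all transcripts in a library and corrects for transcript length. Summed TPM of 7 glial genes was 113 to 294 in *tyf*, 11.2 to 34.8 in *Atx2* RNAi and 20.6 to 43.4 in WT, with *Gs2* and *nrv2* contributing most and the glial master regulator *repo* at 0 to 3.37 TPM. Summed TPM of 6 photoreceptor genes was 6.1 to 232 in *tyf*, 2.42 to 34.7 in *Atx2* RNAi and 5.4 to 72.0 in WT. The part of these cells in the values below was not tested.

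On the TPM scale, which corrects for transcript length, the middle values of the core classes stood above those of the cap classes. Single genes of core and cap interleaved. The median over the 14 libraries had a middle value of 84.3 TPM among the 7 beta-ring genes and of 82.8 TPM among the 7 alpha-ring genes, against 52.1 TPM among the 6 ATPases and 57.3 TPM among the 12 other cap genes. *Prosbeta5* was the most abundant beta-ring transcript at 128 TPM and *Prosbeta1* the least at 55.8 TPM. *Prosalpha7* led the alpha ring at 116 TPM, and its lowest reliably measured member was *Prosalpha4* at 61.3 TPM. Among the ATPases *Rpt6* was highest (93.5 TPM) and *Rpt5* lowest (38.2 TPM). *CG1801* overlaps 1471 bases of *Rpt6* on the opposite strand, and no source used here says that counting used the strand. Among the other cap genes *Rpn6*, whose product clamps the cap onto the core, was highest (98.9 TPM), and *Rpn1*, a large scaffold of the cap, lowest (24.1 TPM). Core genes are also shorter: the median effective transcript length was 895 bases in the beta ring, 924 in the alpha ring, 1434 in the ATPases and 1408 in the other cap genes. The part of the length correction in the order of the classes was not tested.

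Transcripts of most testis-type paralogs were near the limit of detection in the LNvs. Exceptions were *Rpn13R*, which passed 3 reads in all 14 libraries, and *Prosalpha1R*, whose reads could not be reliably told apart from those of *Prosalpha1*. The middle value of the 16 paralogs was 0.0247 TPM. Of the 15 other than *Prosalpha1R*, 9 stayed under 10 reads in every library and 3 passed 3 reads in none. With TPM summed over the 14 libraries, *Rpn13R* reached 9.22% of its standard counterpart *Rpn13*, *Rpn12R* 2.31% of *Rpn12* and *Rpt3R* 0.933% of *Rpt3*. The others of these 15 stayed below 0.933%. Summed TPM of 7 testis genes was 1.63 to 9.51 over the 14 libraries, and *aly* and *topi*, which drive spermatocyte gene expression, had a median of 0.

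*Prosalpha1* and *Prosalpha1R* lie next to each other on chromosome arm 2R (BDGP6), at 7827303 to 7828678 and 7830413 to 7831771, and are so alike that the counting divided their reads erratically. The share given to *Prosalpha1* ran from 0 to 29.9% and was 0 in all 4 *tyf* libraries, 2 *Atx2* RNAi libraries and WT ZT4 and ZT12, so neither gene is reliable alone. Class medians and counts of genes tested or called keep them apart, while the ratios of classes take both in the alpha ring. Elsewhere their sum is given. The sum was 1077 and 1100 normalised counts in *Atx2* RNAi at ZT0, 1238 and 1325 at ZT12, 492 and 544 in *tyf* at ZT4, 508 and 788 at ZT16, and 645 to 1097 in WT. It overlapped with WT in both genotypes, the RNAi libraries at the upper end and those of *tyf* at the lower. A normalised count is the estimated read count per gene scaled to a common library size by TMM, and in bulk samples like these fewer cells of a type and less RNA per cell cannot be told apart.

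Knockdown of *Atx2* was accompanied by higher transcript levels of most beta-ring subunits and a lower level of 1 of them, *Prosbeta3*. At ZT0, 2 of the 36 proteasome genes tested passed an adjusted p of 0.05 by edgeR's quasi-likelihood test, against 7.30% of all genes tested: *Prosbeta5* rose and *Prosbeta3* fell. At ZT12, 4 of 36 passed, against 6.83% of all genes: the 3 catalytic subunits and the ATPase *Rpt2*, all higher. Over the 2 times, with the 4 RNAi libraries set against all 6 WT libraries and day or night as a term, 8 of 37 passed, against 15.3% of all genes: 6 of the 7 beta-ring genes (5 higher, 1 lower), 1 of 7 in the alpha ring, 1 of 6 ATPases and 0 of the 12 other cap genes. Of those 12, 2 had an unadjusted p under 0.05 (*Rpn3* and *Rpn9*), and DESeq2 called 0.

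*Prosbeta3*, a structural subunit of the beta ring (chromosome arm 3R, 9005313 to 9006226), had 129 and 180.4 normalised counts in *Atx2* RNAi at ZT0 and 245 and 224 at ZT12. In WT it had 409 at ZT24, 296 at ZT2, 385 at ZT4, 435 at ZT12, 315 at ZT14 and 458 at ZT16. All 4 RNAi libraries lay below all 6 WT libraries. The log2 fold change was -1.02 (SE 0.171, adjusted p = 0.00099), or 2.03-fold lower, from 383 ± 65.3 (SD, n = 6) to 194 ± 51.3 (SD, n = 4), and it was the one standard subunit found below every WT library, as were 5.83% of all genes tested. By time, the change was -1.22 at ZT0 (SE 0.281, adjusted p = 0.025) and -0.68 at ZT12 (SE 0.279, adjusted p = 0.17), and the difference between the times had an adjusted p of 0.70 by edgeR's quasi-likelihood test. The ZT0 call was lost without either RNAi replicate at ZT0 or without WT ZT24, and the change ran from -1.467 to -0.955 when leaving out 1 library. It was also lost with scaling by library size alone (adjusted p = 0.092 by edgeR's quasi-likelihood test), with only the 4 libraries of the comparison, and with the replicate block. The comparison with all 6 WT libraries kept its call in all 23 alternatives run. *CG11980*, on the opposite strand, overlaps 19 bases of *Prosbeta3*. Some genes called higher have longer overlaps on the opposite strand: *Prosbeta5* with *Lsm10* (81 bases), *Prosbeta2* with *Reck* (82) and *Rpt2* with *CG31142* (116).

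The catalytic subunits moved the other way. *Prosbeta5* (chromosome arm 2R, 10819978 to 10821178) had 1163 and 1012 normalised counts in *Atx2* RNAi at ZT0 and 1194 and 1174 at ZT12, against 532, 540.1 and 603 in WT at ZT24, ZT2 and ZT4 and 764, 639 and 871 at ZT12, ZT14 and ZT16. Every RNAi library was above every WT library. Its log2 fold change over both times was 0.79 (SE 0.14, adjusted p = 0.0015), or 1.73-fold, and at ZT0 it was 0.99 (SE 0.20, adjusted p = 0.015) and at ZT12 0.76 (SE 0.199, adjusted p = 0.046) by edgeR's quasi-likelihood test. Without the first RNAi replicate at ZT0 or WT ZT2 the ZT0 call was lost (adjusted p = 0.13 and 0.053).

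*Prosbeta1* (2R, 16013805 to 16014787) had 421 and 371 normalised counts in *Atx2* RNAi at ZT0 and 457 and 547 at ZT12, and in WT a lowest value of 164, a median of 193 and a highest of 291. The groups did not overlap, and the log2 fold change of 1.06 (SE 0.185, adjusted p = 0.0013), or 2.09-fold, was the largest rise among the standard subunits. *Prosbeta2* (3L, 14999951 to 15001319) had 730.1, 642, 558 and 559 normalised counts in the RNAi libraries and a lowest of 245, a median of 358 and a highest of 538 in WT, the highest, at ZT24, just below the lowest RNAi value. It was 1.60-fold higher (log2 0.68, SE 0.208, adjusted p = 0.037), but the call was lost without any 1 of 8 libraries: each of the 4 RNAi libraries and WT ZT2, ZT4, ZT12 and ZT14, with adjusted p from 0.063 to 0.12. The call was also lost with scaling by library size alone and with no filter on low counts. At ZT12 alone, *Prosbeta1* was 2.27-fold higher (log2 1.18, adjusted p = 0.025) and *Prosbeta2* 2.03-fold (log2 1.02, adjusted p = 0.037) by edgeR's quasi-likelihood test. All ZT12 calls were fragile: those of *Prosbeta2*, *Prosbeta5* and *Rpt2* were lost without any 1 of the 4 libraries compared (adjusted p up to 0.20, 0.25 and 0.27), and that of *Prosbeta1* without either RNAi library or WT ZT14 (adjusted p up to 0.19). At ZT0 *Prosbeta1* and *Prosbeta2* stood at 0.69 (adjusted p = 0.15) and 0.62 (adjusted p = 0.17) on the log2 scale.

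Structural beta subunits other than *Prosbeta3* were also higher. *Prosbeta4* (2L, 16731180 to 16732133) had 497, 394, 464 and 584 normalised counts in *Atx2* RNAi and 177 to 346, with a median of 293, in WT, a 1.73-fold difference (log2 0.79, SE 0.195, adjusted p = 0.012). *Prosbeta6* (3L, 16609400 to 16610418) had 645, 638, 766 and 724 normalised counts in RNAi and 367 to 513, with a median of 454, in WT, a 1.56-fold difference (log2 0.64, SE 0.144, adjusted p = 0.0068). *Prosbeta7* missed the threshold by edgeR, with 738, 818, 833 and 724 normalised counts in RNAi and 429 to 670.5, with a median of 525, in WT (log2 0.50, SE 0.175, adjusted p = 0.065). DESeq2 called *Prosbeta7*. For all 3, every RNAi library lay above every WT library, as for 7.37% of all genes tested, but each overlapped with *tyf*. The *Prosbeta4* call was lost without the first RNAi replicate at ZT0 (adjusted p = 0.052).

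**Figure D1:**
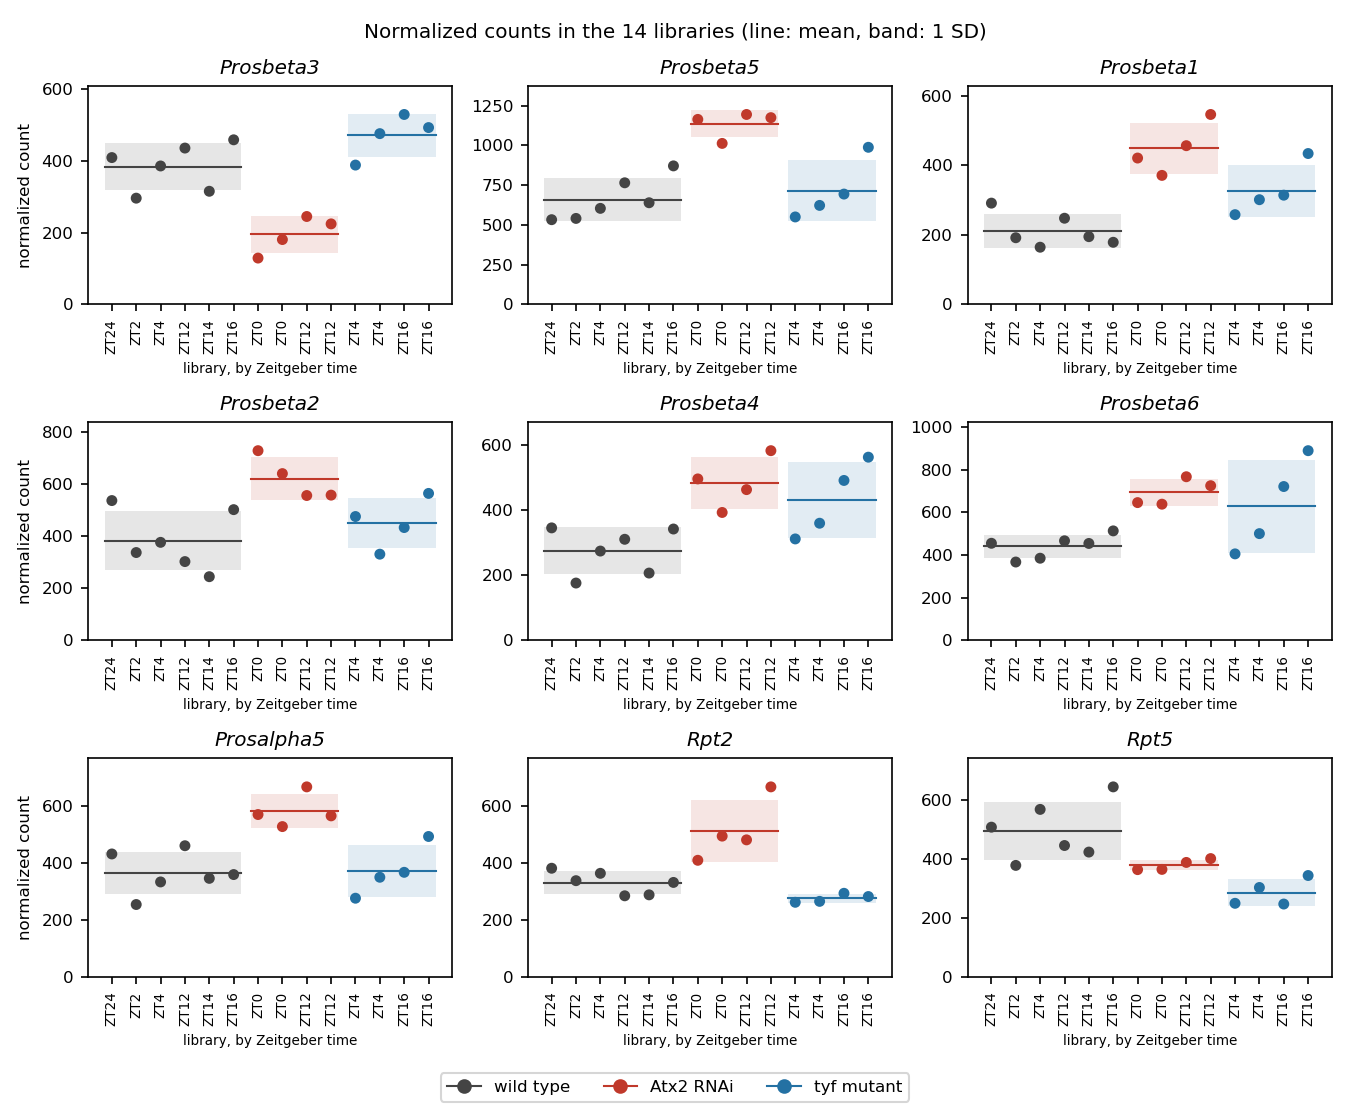
Normalised counts of 9 proteasome genes in each of the 14 libraries; points are libraries, the line is the genotype mean and the band 1 SD. *Prosbeta3* is lowest in the 4 *Atx2* RNAi libraries (129 to 245) and the other 5 beta-ring genes shown are highest there or overlap with *tyf*, while *Rpt5* is lowest in *tyf* (247 to 344).

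In the alpha ring 1 gene passed the test over both times. *Prosalpha5* (2R, 17412767 to 17413769) had 572, 529, 669 and 567 normalised counts in *Atx2* RNAi and 254 to 462, with a median of 353, in WT, with no overlap, a 1.59-fold difference (log2 0.67, SE 0.164, adjusted p = 0.012). *Prosalpha3* (log2 0.36, adjusted p = 0.078) and *Prosalpha4* (log2 0.38, adjusted p = 0.059) did not overlap with WT but missed the threshold. The sum of *Prosalpha1* and *Prosalpha1R* was 1.40-fold higher (log2 0.48, SE 0.159, adjusted p = 0.051).

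*Rpt2*, an ATPase whose tail docks into the alpha ring and opens its gate, was the cap gene called by edgeR. It had 410.1 and 495 normalised counts in *Atx2* RNAi at ZT0, 482 and 669 at ZT12, and 285 to 382, with a median of 335, in WT, so the groups did not overlap. Over both times it was 1.53-fold higher (log2 0.61, SE 0.152, adjusted p = 0.013), and at ZT12 2.01-fold (log2 1.01, SE 0.234, adjusted p = 0.029). Without the second RNAi replicate at ZT12, its highest library, the adjusted p over both times was 0.057 by edgeR's quasi-likelihood test. *Rpt3* (log2 0.44, adjusted p = 0.061), *Rpt6* (log2 0.39, adjusted p = 0.077) and *Rpn3* (log2 0.35, adjusted p = 0.11) lay above every WT library without passing by edgeR. DESeq2 called *Rpt3*, but neither *Rpt6* nor *Rpn3*.

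The classes differed in the size of the change: the middle log2 fold change over both times was 0.68 in the beta ring, 0.21 in the alpha ring, 0.20 in the ATPases and 0.07 in the other cap genes, against -0.02 over all 8760 genes tested. The alpha-ring value takes *Prosalpha1* by its unreliable split, while its sum with *Prosalpha1R* stood at 0.48. Over the 23 alternatives run, the alpha-ring value went from 0.04 to 0.405. In all, 6 beta-ring, 3 alpha-ring, 3 ATPase and 1 other cap gene lay above every WT library in all 4 RNAi libraries, where 7.37% of all genes tested did. Short transcripts as a whole were higher in these libraries: genes with an effective length up to 1127 bases, that of the longest core subunit, had a median of 0.24, and 18.1% of them were called higher, against -0.07 and 5.02% for longer genes. With that dependence on length removed from the counts, an alternative chosen after seeing the data, the 8 genes stayed called and *Rpn3*, *Rpn9*, *Rpt3* and *Rpt6* were added, while the middle value was 0.55 in the beta ring and 0.04 in the alpha ring.

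**Figure D2:**
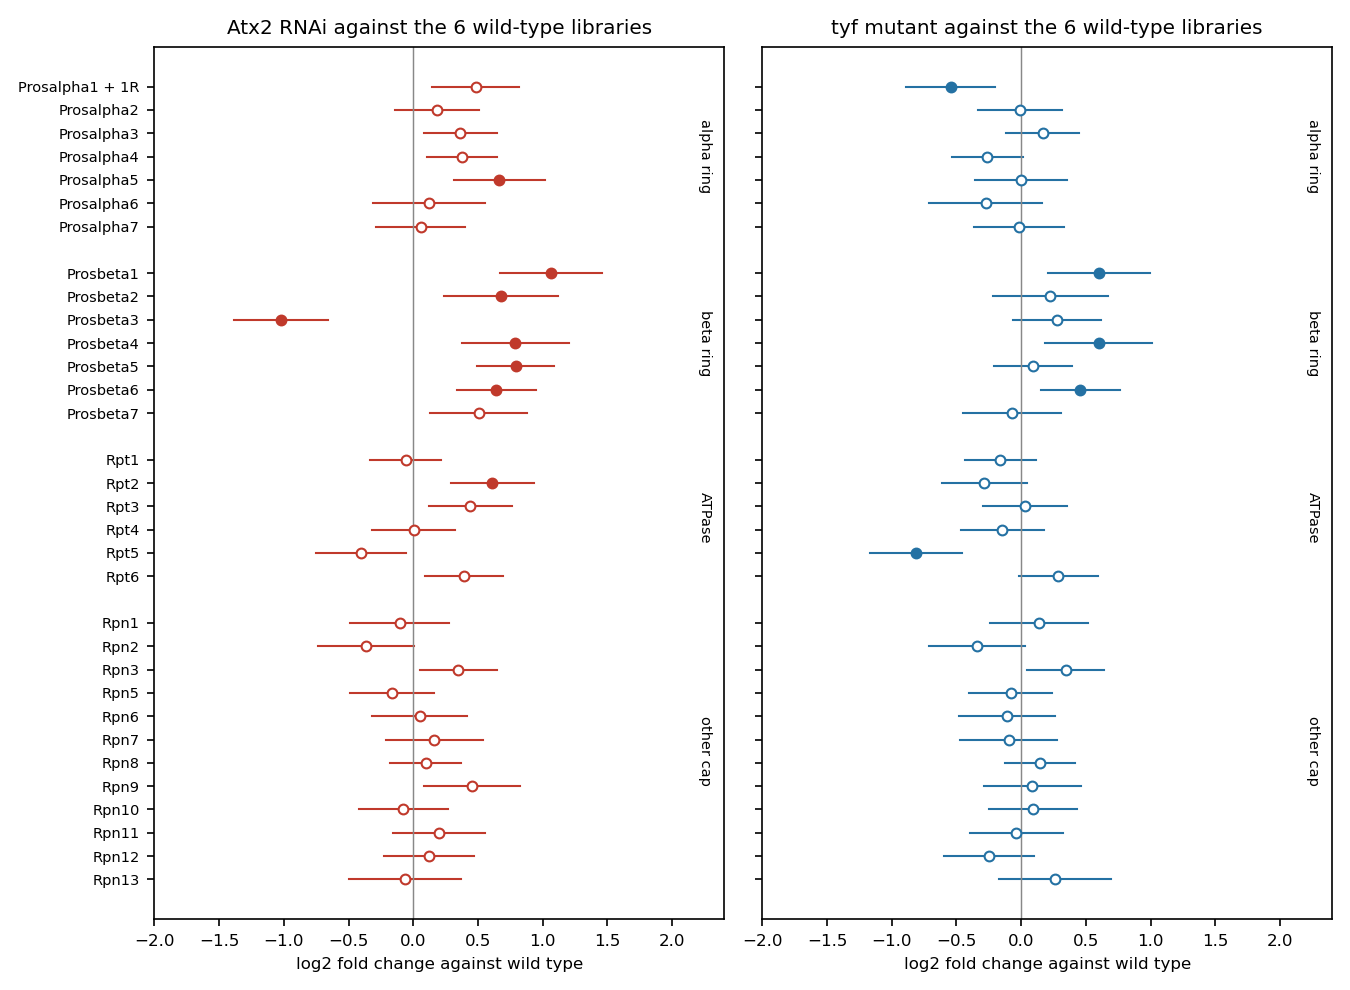
Log2 fold change of each standard subunit in *Atx2* RNAi and in *tyf* against the same 6 WT libraries, with 95% intervals; filled points have an adjusted p under 0.05 (edgeR), and *Prosalpha1* and *Prosalpha1R* are summed. *Prosbeta3* stands at -1.02 in *Atx2* RNAi and 0.28 in *tyf*, and *Rpt5* at -0.40 and -0.81.

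In *tyf* mutants the ATPase *Rpt5* was lower, and few other proteasome genes passed the test. At ZT4, 0 of 37 genes passed by edgeR's quasi-likelihood test, against 4.30% of all genes, with 5 at an unadjusted p under 0.05 and 0 called by DESeq2. At ZT16, 1 of 37 passed, against 6.22% of all genes, and DESeq2 called *Prosbeta1* instead (edgeR log2 0.97, adjusted p = 0.061). The gene called by edgeR was *Prosalpha1*, with its unreliable split, and the sum with *Prosalpha1R* had a log2 fold change of -0.46 (adjusted p = 0.39). The 2 times together, against all 6 WT libraries, gave 4 of 37, against 15.7% of all genes: *Rpt5* lower and *Prosbeta1*, *Prosbeta4* and *Prosbeta6* higher.

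*Rpt5*, an ATPase that like *Rpt2* docks into the alpha ring, had 249.5, 303, 247 and 344 normalised counts in *tyf* against 508 at ZT24, 378 at ZT2, 569 at ZT4, 446 at ZT12, 424 at ZT14 and 645 at ZT16 in WT. All *tyf* libraries lay below all WT libraries, as for 5.91% of all genes tested. It was 1.76-fold lower (log2 -0.81, SE 0.166, adjusted p = 0.0046), and the call held in all 23 alternatives. At single times it stood at -0.78 (ZT4, adjusted p = 0.18) and -0.89 (ZT16, adjusted p = 0.10). In *Atx2* RNAi it had 364, 365, 388 and 402 normalised counts, of which only the first 2 lay below every WT library (log2 -0.40, adjusted p = 0.12).

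Of the beta-ring genes called in *tyf*, *Prosbeta1* had 258, 301, 314 and 434 normalised counts in the mutant (log2 0.60, adjusted p = 0.039), *Prosbeta4* 312, 361, 492 and 564 (log2 0.60, adjusted p = 0.048) and *Prosbeta6* 405, 500.1, 720.5 and 888 (log2 0.46, adjusted p = 0.043). Each overlapped with WT, the libraries at ZT16 being the higher ones. The 3 calls did not hold when scaled by library size alone, where the log2 values were 0.28, 0.27 and 0.14. All 3 were also lost without the first *Atx2* RNAi replicate at ZT0, which enters the spread, the second *tyf* replicate at ZT4, either *tyf* replicate at ZT16, or WT ZT2, ZT4, ZT14 or ZT16, and *Prosbeta4* and *Prosbeta6* without WT ZT12, with adjusted p up to 0.15, 0.16 and 0.19. *Prosbeta4* was lost as well without any of the other RNAi libraries. Scaling by library size lowered the median of all genes in *tyf* to -0.32, turned the called genes from 658 higher and 716 lower (47.9% higher) into 250 higher and 1657 lower (13.1% higher), and gave 0 higher and 5 lower standard subunits, with *Rpt5* among the lower. At ZT16 alone it lowered the median to -0.42 and the share of called genes that were higher from 47.2 to 13%, and at ZT4 that share went from 55.0 to 40.7%. Short transcripts as a whole were higher in *tyf* too. Genes up to 1127 bases had a median of 0.178 and 12.9% were called higher, against -0.077 and 5.96% for longer genes. Removing the dependence on transcript length also left *Rpt5* as the only call. The classes had middle log2 values of 0.28 in the beta ring, -0.02 in the alpha ring, -0.15 in the ATPases and 0.02 in the other cap genes, against -0.03 over all genes. The alpha-ring value again takes *Prosalpha1* by its unreliable split. The sum of *Prosalpha1* and *Prosalpha1R* was 1.46-fold lower (log2 -0.54, SE 0.163, adjusted p = 0.034).

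The difference between the genotypes was tested directly, *Atx2* RNAi against *tyf*, in a comparison added after seeing the data, and 6 of 37 genes passed, against 7.95% of all genes. The RNAi libraries were taken at ZT0 and ZT12 and those of *tyf* at ZT4 and ZT16. No time is shared, so a difference of hour cannot be told apart from one of genotype. *Prosbeta3* was 2.45-fold lower in *Atx2* RNAi (log2 -1.30, SE 0.183, adjusted p = 0.00078), its *tyf* libraries holding 388, 476, 529 and 492 normalised counts, all within or above the range of WT, and it lay below every *tyf* library in all 4 RNAi libraries, as did 7.26% of all genes tested. Higher in *Atx2* RNAi were *Rpt2* (1.86-fold, adjusted p = 0.0058), *Prosbeta5* (1.62-fold, adjusted p = 0.013), *Prosalpha4* (1.56-fold, adjusted p = 0.013), *Prosalpha5* (1.59-fold, adjusted p = 0.037) and *Prosalpha1R*, the last better given as the sum with *Prosalpha1* (2.04-fold, adjusted p = 0.0031). *Rpt2* had 262, 265, 294 and 282 normalised counts in *tyf*, all below the 4 RNAi libraries, as for 8.03% of all genes tested. *Prosbeta1* (log2 0.46, 95% interval 0.03 to 0.90, adjusted p = 0.19) and *Rpt5* (log2 0.41, 95% interval 0.03 to 0.79, adjusted p = 0.18) did not pass. The *Prosalpha5* call was lost without any 1 of 7 libraries, the 4 of *Atx2* RNAi, both of *tyf* at ZT4 and the first at ZT16, with adjusted p up to 0.10. Scaling by library size alone raised the median of all genes to 0.37, the share of called genes that were higher from 47.1 to 87.3%, and the called proteasome genes to 17.

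The balance of the classes within a library was also described by ratios of summed counts. The summed normalised counts of the beta ring were 0.919 to 0.966 of those of the alpha ring in *Atx2* RNAi, 0.966 to 1.14 in *tyf* and 0.713 to 0.845 in WT. Both genotypes lay above WT. The core amounted to 0.823 to 0.943 of the cap in *Atx2* RNAi, above every value in *tyf* (0.628 to 0.804) and in WT (0.635 to 0.751). Core genes have shorter transcripts than cap genes, and short transcripts as a whole were higher in *Atx2* RNAi and in *tyf* than in WT. All genes tested up to 1127 bases had a median log2 fold change against WT of 0.245 in *Atx2* RNAi and 0.178 in *tyf*. Longer genes had -0.074 and -0.077. The part of length in the core to cap ratio was not tested. *Prosbeta3* held 18.4 to 34.4% of the mean of the other beta-ring genes in *Atx2* RNAi, 69.8 to 111% in *tyf* and 84.3 to 101% in WT. The sums are given as a description, without a test.

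**Figure D3:**
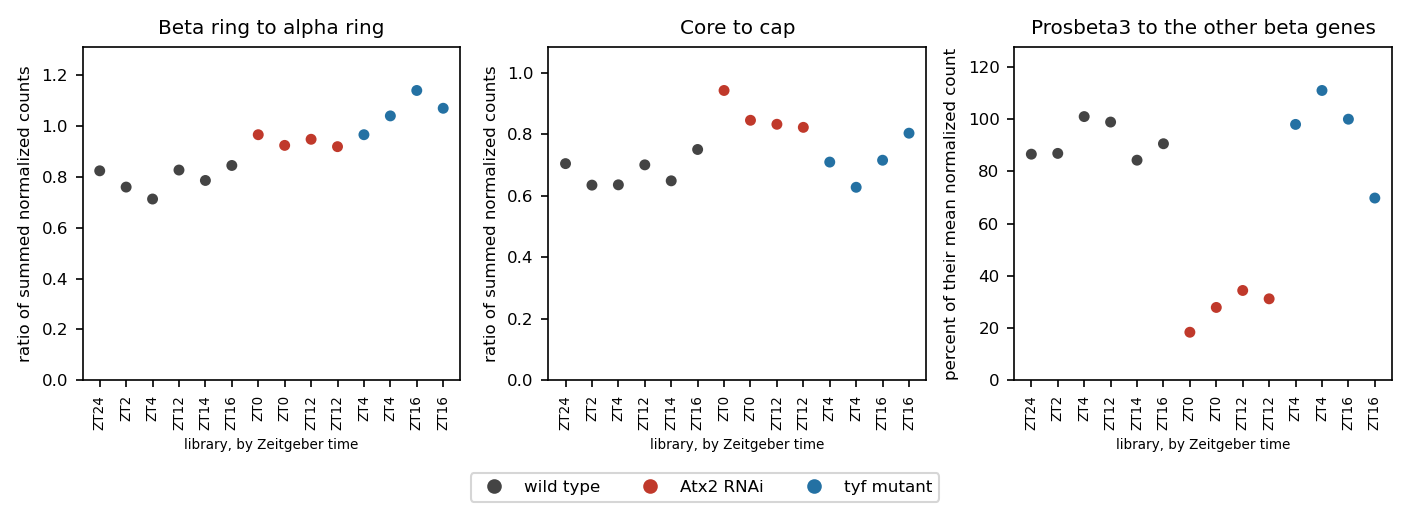
Ratios of summed normalised counts within each library: beta ring to alpha ring, core to cap, and *Prosbeta3* as a percentage of the mean of the other beta-ring genes. The 4 *Atx2* RNAi libraries stand apart for *Prosbeta3*, at 18.4 to 34.4% against 69.8 to 111% in the other 10.

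Between times of day no proteasome gene passed. In *Atx2* RNAi, ZT0 against ZT12 gave 0 of 36 by edgeR's quasi-likelihood test (4.10% of all genes, 2 at an unadjusted p under 0.05, DESeq2 0, smallest adjusted p = 0.28). In *tyf*, ZT4 against ZT16 gave 0 of 37 (0.989% of all genes, 4 unadjusted, DESeq2 0, smallest adjusted p = 0.19). WT day against night, 3 libraries each, gave 0 (1.43% of all genes, 1 unadjusted, DESeq2 0, smallest adjusted p = 0.53). The values leaned to the later time in both mutants. In *Atx2* RNAi, 28 of 32 standard subunits were lower at ZT0 than ZT12, with a median of -0.25 against -0.009 over all genes tested. In *tyf*, 31 were lower at ZT4 than ZT16, with a median of -0.27 against 0.026. Scaled by library size alone, 2 of 32 were higher at the earlier time in *Atx2* RNAi, 7 in *tyf* and 7 by day in WT. With this scaling the share of all called genes that were higher went from 59.9 to 45.2% in *Atx2* RNAi, from 73.4 to 85.5% in *tyf* and from 57.4 to 39.6% in WT. The medians over all genes were then -0.12, 0.17 and -0.12. With TMM scaling, 20 of 32 were lower by day in WT, with a median of -0.05, and the gene with an unadjusted p under 0.05 was *Prosbeta5* (log2 -0.43). The effect of genotype differed between times for 0 proteasome genes in the *Atx2* RNAi comparison by edgeR (0.74% of all genes, 1 unadjusted, DESeq2 0) and for 0 in the *tyf* comparison (0.0526% of all genes, 1 unadjusted, DESeq2 0).

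Among the paralogs, *Rpt3R* had 13, 22, 12 and 5 reads in *Atx2* RNAi and 0, 2, 5, 1, 4 and 13 in WT, at ZT24, ZT2, ZT4, ZT12, ZT14 and ZT16. On normalised counts all 4 RNAi libraries, at 7.72 to 21.6, lay above WT, at 0 to 7.39, but the log2 fold change of 2.29 did not pass (SE 0.772, adjusted p = 0.057), nor did 3.38 at ZT0 (adjusted p = 0.17) and 2.27 at ZT12 (adjusted p = 0.30). The highest WT library reached almost the lowest RNAi library. The WT libraries compared at ZT0 and ZT12 held 0 to 4 reads, at or near the 3 reads taken here as the smallest a library can show. The folds at these times are therefore not reliable, and that at ZT0 ran from 2.54 to 6.71 when leaving out 1 library. In *tyf* it had 11, 1, 7 and 7 reads, with a log2 value of 1.29 at ZT4 (adjusted p = 0.72).

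*Rpn12R* had 0, 7, 10 and 9 reads in *Atx2* RNAi, 5, 0, 0 and 0 in *tyf* and 3 to 22 in WT. No fold is given, because in *tyf* and in WT at ZT12, ZT14 and ZT16 the counts stood at or near the floor of 3 reads. *Rpn13R* had 28, 62, 19 and 21 reads in *Atx2* RNAi, 42, 16, 15 and 20 in *tyf* and 15 to 167 in WT, the highest at ZT4, with a log2 fold change of -1.40 in *tyf* at ZT16 (adjusted p = 0.33). Both genes lie within longer genes on the same strand, *Rpn12R* in *Sytbeta* and *Rpn13R* in *rg* and *CG15465*, so some of their reads may belong to those. *Prosbeta5R2* had 1 to 23 reads per library, *Prosalpha6T* 18 in WT ZT16 and at most 2 elsewhere, and *Prosbeta2R2* 11 in the first *tyf* replicate at ZT4 and at most 2 elsewhere.

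Other genes of the ubiquitin-proteasome pathway formed a list of 22 that were all tested. In *Atx2* RNAi against all WT, 5 of the 22 were higher and 0 lower by edgeR's quasi-likelihood test, where 15.3% of all genes tested were called. The list median was -0.10 against -0.02 over all genes. The dependence on transcript length was not examined for this list. *Pomp*, the chaperone of core assembly, had 1056, 771, 887 and 837 normalised counts in RNAi and 424 to 577 in WT (1.74-fold, adjusted p = 0.0012). *Sem1*, a small subunit of the cap that the naming rule does not take, had 695, 560.5, 624 and 655 against 264 to 463 (1.88-fold, adjusted p = 0.0024). Neither overlapped with WT. The ubiquitin fusion genes *RpL40* (2.05-fold, adjusted p = 0.00043) and *RpS27A* (1.57-fold, adjusted p = 0.015), which also encode ribosomal proteins, were higher, as was *cnc*, which encodes the transcription factor that raises proteasome genes (1.47-fold, adjusted p = 0.024). *cnc* had 1344, 907, 1768 and 1548 normalised counts in RNAi and 723 to 1199 in WT, with the second replicate at ZT0 inside the WT range.

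In *tyf* against all WT, 3 of the 22 were higher and 4 lower, with a median of -0.09, where 15.7% of all genes tested were called. *RpS27A* (1.51-fold, adjusted p = 0.026), *RpL40* (1.43-fold, adjusted p = 0.038) and *Pomp* (1.41-fold, adjusted p = 0.023) were higher. Lower were *Uch-L5*, a deubiquitinase of the cap (1.83-fold, adjusted p = 0.0072), *PI31*, a regulator of the core (1.73-fold, adjusted p = 0.015), *Pngl*, a deglycosylating enzyme (1.54-fold, adjusted p = 0.039), and *Rad23*, which carries tagged proteins to the proteasome (1.49-fold, adjusted p = 0.0077). At single times the list gave *Sem1* higher (log2 1.09) and *Ubqn*, another carrier, lower (log2 -0.93) in *Atx2* RNAi at ZT0, *RpL40* and *Sem1* higher at ZT12 (log2 1.26 and 1.03), none in *tyf* at ZT4 and *RpS27A* higher at ZT16 (log2 0.94). Of all genes tested, 7.30%, 6.83%, 4.30% and 6.22% were called in these comparisons, in that order.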

How the data were processed

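LNvs were sorted, their RNA was amplified by T7 transcription, and single-end reads of 50 bases were quantified by the authors with kallisto (version not given in the sources used here) against FlyBase release 6.14 transcripts. The deposited tables hold estimated counts and TPM per transcript, as the authors made them. Amplification may affect transcripts of different length unequally. Of 30438 transcripts, 30191 matched a gene of Ensembl release 115 (BDGP6), and 0.17 to 0.32% of estimated counts did not. Both measures were summed per gene, and estimated counts were rounded. edgeR 4.0.16 (R 4.3.3) with filterByExpr, TMM and the quasi-likelihood test, adjusted by Benjamini-Hochberg over all genes tested, was used in place of the DESeq2 of the study. DESeq2 1.42.0 was an alternative, with library size alone, filters and left-out libraries. Genes named are those called, the 3 largest changes per comparison at a time, catalytic subunits, paralogs with 10 reads or more and the extremes of each class. The code was tested on simulated data. Members and lists were chosen with earlier results of these data known.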

Additional observations from a re-analysis of the deposited data

How the results depend on the processing

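The comparisons at single times rest on 2 libraries a side and their counts were small throughout. For *Atx2* RNAi at ZT0, the 2 called genes became 1 with library size only, with the 4 libraries of the comparison alone and with the replicate block, and 0 to 4 when leaving out 1 library. At ZT12 the 4 became 0 with library size only and with the replicate block, and 0 to 1 when leaving out 1 library. For *tyf* at ZT4, the 0 became 1 without a filter on low counts, and 0 to 1 when leaving out 1 library. At ZT16 the 1 became 2 with library size only, 4 with no filter, 3 with the 4 libraries alone, 0 with the replicate block, 0 with *Prosalpha1* and *Prosalpha1R* summed, 0 with the length trend removed, and 0 to 1 when leaving out 1 library. With no filter, 1 gene was called between times in *Atx2* RNAi and 1 for the difference of its effect between times. Against all 6 WT libraries, the 8 genes of *Atx2* RNAi became 11 with DESeq2 and 12 with the length trend removed, and 6 to 12 when leaving out 1 library. The 4 of *tyf* became 2 with no filter, 1 with the length trend removed, 2 with no term for day or night, and 1 to 5 when leaving out 1 library. *Atx2* RNAi against *tyf* went from 6 to 17 with library size only, and to 4 to 7 when leaving out 1 library. The replicate numbers do not pair the libraries (correlation of deviations 0.0102 and 0.0169). *Prosalpha1* in *Atx2* RNAi at ZT12 ran from -8.89 without the first RNAi replicate to 10.28 without WT ZT14, and *Rpt3R* in *tyf* at ZT4 from -1.12 to 2.12 without the first and second *tyf* replicate. Single proteasome genes kept their direction and side of the threshold in 535 of 645 values, and class medians moved by less than 1 SD of the WT libraries in 634 of 668. Depth limits the paralogs other than *Prosalpha1R* and *Rpn13R*, most of them under 10 reads in every library. *Prosalpha5*, *Prosbeta1*, *Prosbeta3*, *Prosbeta5* and *Prosbeta6* kept their call in *Atx2* RNAi against all WT in all 23 alternatives.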
